A study of Caenorhabditis elegans with 15 samples.

Results

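Body-wall muscle of dauer larvae was set against multiple tissues of mixed-stage animals in the nematode Caenorhabditis elegans, with 2 libraries on each side out of 15 in the series. The comparison covers all genes: 8954 of the 14831 genes in the count table had enough reads to be tested, and the other 5877 were not tested. Dauer muscle came from animals carrying Pmyo-3::tag:SL1(G16C), in which the myo-3 promoter, active in body-wall muscle, drives a tagged copy of the spliced leader SL1. Multiple tissues came from mixed-stage animals carrying PU2-3::tag:SL1(G16C), in which the promoter of the U2-3 small nuclear RNA gene drives the same tagged leader. G16C names a base change in the leader that all 4 libraries share, so both sides were read through the same tagged RNA. The dauer larvae were grown in shaken liquid culture at 20 °C for 3 to 4 days, treated with 1% SDS for 15 min, floated on sucrose and Ficoll, checked under the microscope to be over 90% live dauers and left overnight in 0.1 M NaCl. The mixed-stage animals grew at 20 °C on agar plates seeded with OP50 bacteria. Tissue, developmental stage, culture and the promoter behind the tag therefore differ together between the groups and cannot be told apart in this comparison.

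Most C. elegans pre-mRNAs lose their first stretch of RNA and receive a short spliced leader in its place, a reaction called trans-splicing. When the leader carries a tag and is made in chosen cells, the mRNAs of those cells can be pulled out of whole-animal RNA by a probe against the tag, and the first bases after the leader show where each mature mRNA begins. Dauer is a non-feeding, long-lived larval stage that C. elegans enters instead of the third larval stage under crowding, heat or hunger; insulin, TGF-beta and steroid hormone signalling govern the choice. Dauers do not grow or reproduce, resist detergent and oxidative stress, and live on stored fat and glycogen. Body-wall muscle holds thick myosin filaments, thin actin filaments with tropomyosin and troponin, and attachment structures (dense bodies and M-lines) that tie the filaments to the cell membrane.

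The deposited counts held 1974529 and 9587967 reads in genes in dauer muscle replicates 1 and 2, against 2196322 and 3636542 in multiple tissues. Dauer muscle replicate 2 stood apart: it was the deepest of the 4 libraries, yet only 4569 genes had a read in it. Dauer muscle replicate 1 had reads in 7945 genes, and the multiple-tissue libraries in 7650 and 8056. At the depth of the shallowest library (1974529 reads) the expected numbers were 7945 and 4518.5 genes in dauer muscle and 7554.9 and 7527.6 in multiple tissues. There were 478 genes with at least 50 reads in dauer replicate 1 and none in dauer replicate 2, of which 399 were read in both multiple-tissue libraries, and 88 genes with the reverse pattern. Neither pattern occurred for any gene in multiple tissues (0 and 0). Normalised levels differed between the replicates by more than 10-fold for 1352 genes in dauer muscle and 0 in multiple tissues. Across genes, the replicates had a Spearman correlation of 0.781 in dauer muscle and 0.974 in multiple tissues, and the biological coefficient of variation within the group was 1.66 in dauer muscle and 0.0583 in multiple tissues. A count of 0 allows up to 3 counts for counting error alone. Before any scaling between libraries, a count of 3 corresponded to 1.52 and 0.313 CPM (counts per 1000000) in dauer muscle. In multiple tissues it corresponded to 1.37 and 0.825. On the scaled levels used below, 1 read was 0.612 CPM in multiple-tissue replicate 1 and 0.382 CPM in replicate 2. The 478 and 88 genes above show that the dauer libraries differed by more than that. Folds given below as at least a value are therefore not firm lower limits. Leading counts below are therefore given also without dauer replicate 2.

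**Figure D1:**
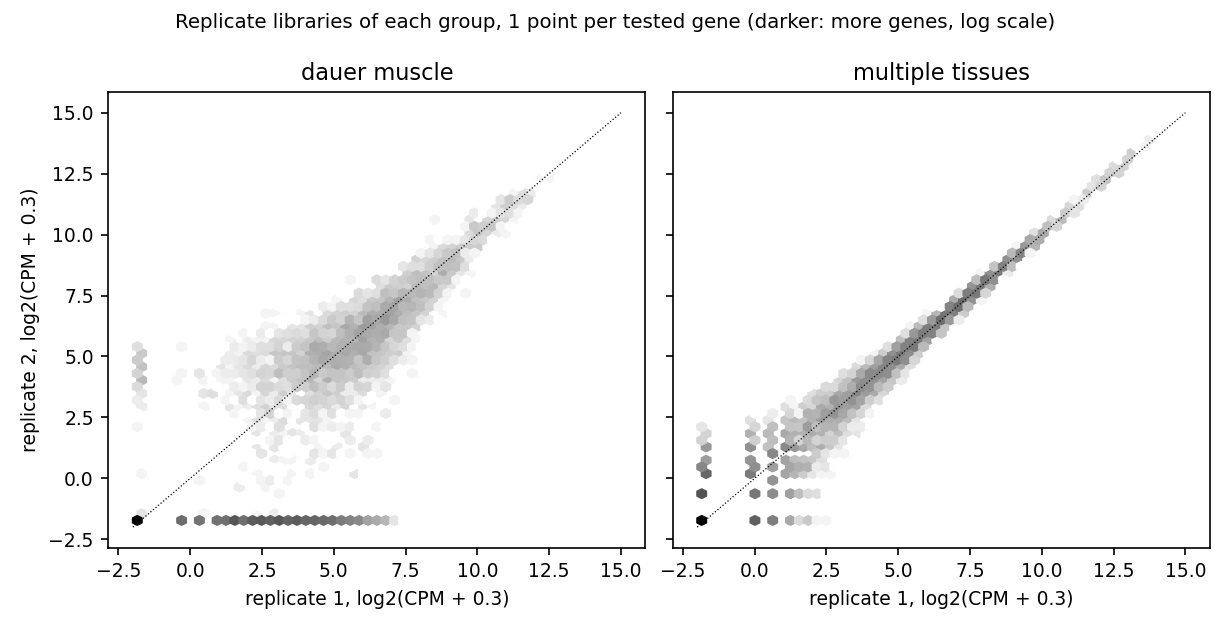
Normalised level of each tested gene in replicate 1 (horizontal axis) against replicate 2 (vertical axis), as log2(CPM + 0.3), for dauer muscle on the left and multiple tissues on the right; darker hexagons hold more genes. Dauer muscle has a wide cloud and a band of genes read in replicate 1 with no read in replicate 2 (Spearman 0.781), and multiple tissues a narrow diagonal (Spearman 0.974).

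Levels are given in CPM, scaled between libraries by edgeR's TMM factors, in the order replicate 1, replicate 2. They count only RNA joined to the tagged SL1, and not RNA carrying another spliced leader, SL2. A log2 fold change is dauer muscle minus multiple tissues on the log2 scale, with its standard error. A gene counted as higher or lower when its adjusted p in edgeR's quasi-likelihood test (Benjamini-Hochberg over 8954 genes) was under 0.05. The fit used 14 libraries of the series made with the SL1 tag, so the spread of the 2 libraries of each group was estimated together with that of the others. Since each side is a pool of RNA captured by the tag, fewer cells of a type and less RNA per cell cannot be told apart.

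In dauer muscle 460 genes were higher than in multiple tissues (5.14% of the genes tested) and 207 were lower (2.31%), together 667 (7.45%). The higher genes took 27.0 and 30.9% of the normalised counts in dauer muscle, against 0.868 and 0.837% in multiple tissues. The lower genes took 10.9 and 10.9% in dauer muscle, against 34.5 and 35.4% in multiple tissues. Median log2 fold changes were 6.66 among the higher and -5.79 among the lower genes, values that the test itself selected. Of the higher genes, 71 had no read in either multiple-tissue library, and of the lower genes 95 had no read in either dauer library. Only a sequence name, and no gene symbol, was given for 242 of the 460 higher genes. Levels of the 2 groups did not overlap for 5550 genes (62% of those tested), all 667 called genes among them, and 2108 genes had an unadjusted p under 0.05. Without dauer replicate 2 the counts were 400 higher and 78 lower, and without dauer replicate 1 they were 536 and 694. Without multiple-tissue replicate 1 they were 172 and 86, and without replicate 2 they were 161 and 68. The share of called genes that were higher, 69.0% in the fit of 14 libraries, was 49.9% when only these 4 libraries were fitted and 41.0% with limma on log2(RPM + 1).

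**Figure D2:**
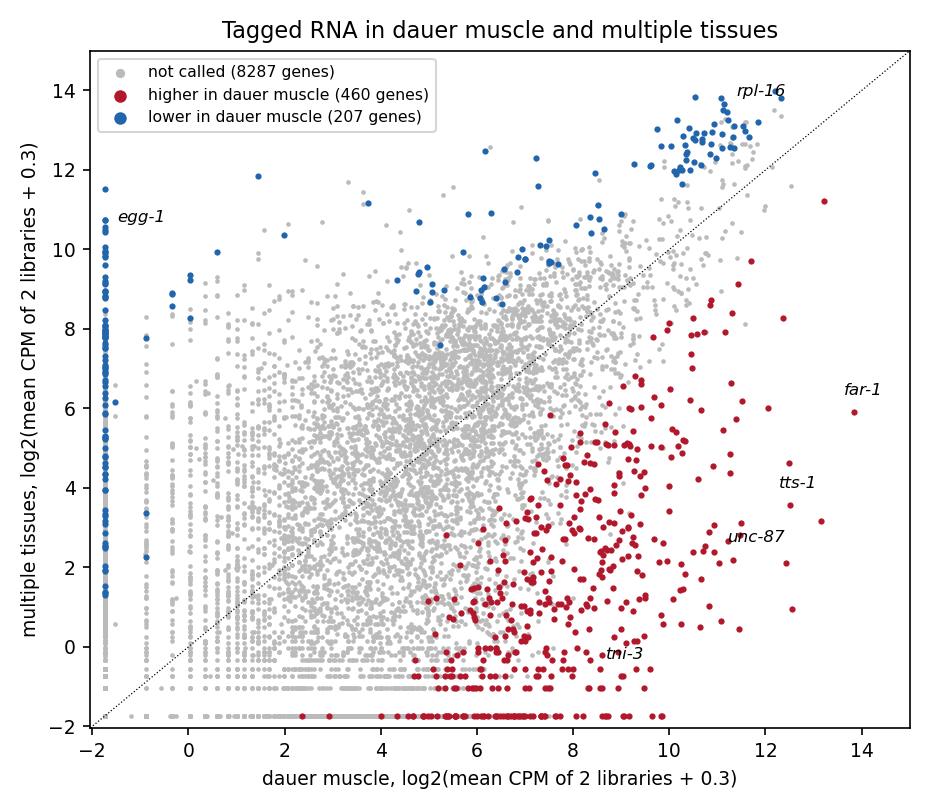
Mean normalised level of each of the 8954 tested genes in dauer muscle (horizontal axis) and multiple tissues (vertical axis), as log2(mean CPM + 0.3); red points are the 460 genes higher in dauer muscle, blue points the 207 lower, grey points the 8287 not called. Many red points lie along the bottom edge and many blue points along the left edge, where the other group had few or no reads.

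Markers were read first as a check of the labels. Summed over the 5 of 6 body-wall muscle markers found in the table, RPM (reads per 1000000) came to 4185 and 3610 in dauer muscle and 26.0 and 26.7 in multiple tissues. The paramyosin gene unc-15 had 0 reads in all 4 libraries, and unc-54, a myosin heavy chain gene, was not analysed here. Dauer-state markers (3 of 6 found) summed to 6056 and 6347 in dauer muscle and 22.77 and 16.22 in multiple tissues, nearly all of it from the non-coding RNA tts-1. The other markers found did not separate the groups. Reads of cut-1 were 0 and 0 in dauer muscle and 0 and 2 in multiple tissues, and those of sod-3 were 23 and 0 against 1 and 8. The pharyngeal muscle markers found (3 of 4) had 0 reads in all 4 libraries. Germline markers (6 of 7 found) summed to 17.2 and 27.1 in dauer muscle and 3567 and 3738 in multiple tissues, with puf-5 and daz-1 at 0 in both dauer libraries. Intestinal markers (3 of 6 found) came to 20.8 and 103 in dauer muscle, against 274 and 259 in multiple tissues. Nearly all came from asp-1, with 41 and 986 reads in dauer muscle and 601 and 939 in multiple tissues. Both ges-1 and elt-2 had 0 reads in dauer muscle. In multiple tissues ges-1 had only 0 and 2 reads and elt-2 only 1 and 0, so their absence in dauer muscle shows little. Hypodermal markers (6 of 6 found) came to 10.1 and 0 in dauer muscle, with 4 of the 6 genes at 0 there, against 30.5 and 29.7 in multiple tissues. Of those 4, col-19 and wrt-2 had 0 reads in multiple tissues too, while dpy-7 had 0 and 3 reads there and elt-3 had 4 and 8. Neuronal markers (5 of 7 found) went the other way, with 2103 and 3143 in dauer muscle and 353 and 378 in multiple tissues. Most came from the synaptobrevin gene snb-1, with 3507 and 27797 reads in dauer muscle and 767 and 1357 in multiple tissues. The myosin heavy chain gene myo-3, whose promoter drives the tag in muscle, had 30 and 1714 reads in dauer muscle and 0 and 1 in multiple tissues. Its CPM were 14.6 and 160 in dauer muscle and 0 and 0.382 in multiple tissues, so the groups did not overlap. The dauer libraries themselves differed, and the log2 fold change of 8.23 ± 2.38 did not pass (edgeR adjusted p = 0.079). It passed without dauer replicate 1 (edgeR adjusted p = 0.0436) and with the replicate number as a block (0.0333), and not without dauer replicate 2 (0.19).

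Genes of the contractile filaments were higher in dauer muscle. Of 28 sarcomere genes listed, 16 were tested: 8 were higher, 0 lower, and the median log2 fold change was 5.34 (5.23 with genes without a read in 1 group set to their bound), against 0 over all tested genes. Together they held 1.197 and 1.182% of the reads in dauer muscle and 0.449 and 0.432% in multiple tissues. The thin-filament protein gene unc-87 (chromosome I, 6761221 to 6767797, WBcel235) had 2300 and 1628 CPM in dauer muscle, against 8.57 and 7.63 CPM in multiple tissues, a log2 fold change of 7.91 ± 0.63 (edgeR adjusted p = 0.00014). The troponin I gene tni-3 had 1173 and 5088 reads in dauer muscle and 1 and 0 reads in multiple tissues, or 570 and 476 CPM against 0.612 and 0 CPM (log2 fold change 10.67 ± 1.06, edgeR adjusted p = 0.000687). Troponin holds the thin filament inactive until calcium arrives, and a second troponin I gene, unc-27, moved the same way, with 834 and 534 CPM in dauer muscle and 11.01 and 16.79 CPM in multiple tissues (log2 fold change 5.61 ± 0.63, edgeR adjusted p = 0.000776). The myosin light chain gene mlc-2 reached 1132 and 975 CPM in dauer muscle, against 25.7 and 29.0 CPM in multiple tissues (log2 fold change 5.26 ± 0.66, edgeR adjusted p = 0.00198). These 4 genes lay at 476 CPM or above in both dauer libraries and at 29.0 CPM or below in both multiple-tissue libraries, and each passed in all 4 fits that left out a library. The remaining 4 called members, named after their values were seen, were mup-2 and tnt-2 (troponin T), tni-1 (troponin I) and lev-11 (tropomyosin), with log2 fold changes of 5.62, 4.58, 5.21 and 5.42. Again 8 of the 16 were higher without dauer replicate 2. The numbers were 7 and 6 without multiple-tissue replicates 1 and 2.

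Attachment genes showed the same direction. Of 22 tested genes of dense bodies and M-lines, 7 were higher and 0 lower, with a median log2 fold change of 5.03 (3.99 at the bound). The profilin gene pfn-3, whose product binds actin monomers, had 1279 and 1950 CPM in dauer muscle, against 2.45 and 3.43 CPM in multiple tissues (log2 fold change 9.05 ± 0.88, edgeR adjusted p = 0.000403). The paxillin gene pxl-1, an adaptor of integrin attachments, had 804 and 4072 reads in dauer muscle (391 and 381 CPM) and no read in either multiple-tissue library. Set against 3 counts over the group it was at least 547-fold higher, and at least 210-fold with the floor of the shallower library alone (edgeR adjusted p = 0.0033). The LIM-domain gene lim-9 had 164 and 111 CPM in dauer muscle and 2.45 and 0.763 CPM in multiple tissues (log2 fold change 6.43 ± 0.92, edgeR adjusted p = 0.00283). A gene for another LIM-domain protein of these structures, unc-95, had 212 and 119 CPM in dauer muscle and 0 and 0.763 CPM in multiple tissues (log2 fold change 8.33 ± 1.19, edgeR adjusted p = 0.00369). In each of the 4 the dauer libraries lay within 2-fold of each other and far above both multiple-tissue libraries. The other 3 called members, named after their values were seen, were pat-6 (parvin), dim-1 and unc-96, at log2 fold changes of 3.73, 4.21 and 9.52. The number higher was 5 without dauer replicate 2, and 5 and 4 without multiple-tissue replicates 1 and 2.

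Excitation and calcium handling were represented by 21 tested genes. Of these, 3 were higher (14.3%, against 5.14% of all tested genes) and 0 lower, with a median log2 fold change of 6.68 (4.65 at the bound). The called genes were dyb-1 and stn-1, which encode dystrobrevin and a syntrophin of the dystrophin complex, and molo-1, an auxiliary protein of acetylcholine receptors. The gene dyb-1 had 34.5 and 51.5 CPM in dauer muscle and 0.612 and 0 CPM in multiple tissues (log2 fold change 7.03 ± 1.41, edgeR adjusted p = 0.0145). For stn-1 the values were 42.8 and 37.5 CPM in dauer muscle and 0 and 0.382 CPM in multiple tissues (log2 fold change 7.12 ± 1.45, edgeR adjusted p = 0.0153). The level of molo-1 was 206 and 167 CPM in dauer muscle and 0.612 and 0 CPM in multiple tissues (log2 fold change 9.13 ± 2.22, edgeR adjusted p = 0.034). These calls rested on both multiple-tissue libraries: 0 of the 21 passed when either was left out, and 2 passed without dauer replicate 2. Of the muscle-fate transcription factor genes, 2 were tested and unc-120, a serum response factor homologue, was higher. It had 613 and 488 CPM in dauer muscle and 0 and 1.53 CPM in multiple tissues (log2 fold change 9.21 ± 1.40, edgeR adjusted p = 0.00509), and it passed in all 4 fits that left out a library.

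**Figure D3:**
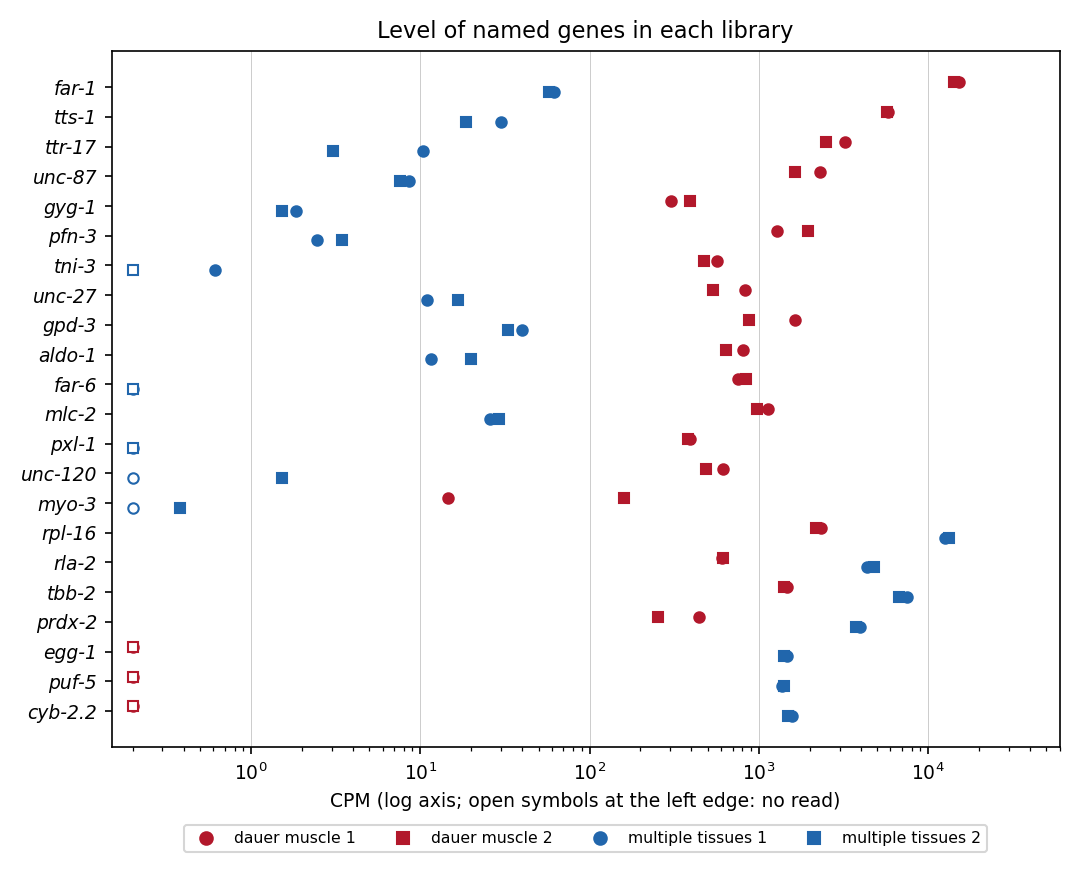
Level in CPM (log axis) of 22 genes in the 2 dauer muscle and 2 multiple-tissue libraries; open symbols at the left edge mark libraries with no read. Muscle, lipid-binding and dauer-associated genes lie to the right in dauer muscle, and ribosomal, germline and cell cycle genes to the right in multiple tissues.

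Among genes tied to the dauer state, tts-1 had the clearest difference. It is a long non-coding RNA known to be abundant in dauers and in long-lived insulin receptor mutants, where it is bound to ribosomes. There were 11935 and 60859 reads of tts-1 (chromosome X, 1504131 to 1504841, WBcel235) in dauer muscle and 49 and 49 in multiple tissues, or 5801 and 5695 CPM against 30.0 and 18.7 CPM (log2 fold change 7.88 ± 0.56, edgeR adjusted p = 9.45e-05). Of 23 tested genes of the insulin and dauer pathways, 2 were higher (8.70%, against 5.14% of all tested genes) and 0 lower. The first of the 2 was tts-1. The second was daf-14, a SMAD gene of the TGF-beta pathway, with 125 and 199 CPM in dauer muscle and 6.73 and 8.78 CPM in multiple tissues (log2 fold change 4.37 ± 0.96, edgeR adjusted p = 0.0212). This call was lost without either multiple-tissue library. Among 7 tested genes of trehalose, glycogen and the glyoxylate cycle, 1 was higher: gyg-1, for glycogenin, the protein primer on which glycogen is built. It had 303 and 391 CPM in dauer muscle and 1.84 and 1.53 CPM in multiple tissues (log2 fold change 7.64 ± 0.68, edgeR adjusted p = 0.000258). Of 5 small heat shock protein genes tested, 2 were higher, hsp-25 (149 and 45.5 CPM in dauer muscle, 7.95 and 8.78 CPM in multiple tissues) and hsp-12.1 (182 and 41.5 CPM in dauer muscle, 1.22 and 0 CPM in multiple tissues), with edgeR adjusted p of 0.0121 and 0.0462. The first call was lost without either multiple-tissue library and the second without any one of the 4 libraries. Of 2 linker histone genes tested, hil-1 was higher. It had 400 and 279 CPM in dauer muscle and 3.06 and 1.91 CPM in multiple tissues (log2 fold change 7.08 ± 1.07, edgeR adjusted p = 0.00369).

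Secreted and cytosolic lipid carriers took a larger share of the reads in dauer muscle. Fatty-acid and retinol binding protein genes (9 tested, 3 higher, 0 lower) held 2.23 and 2.22% of the reads in dauer muscle and 0.526 and 0.515% in multiple tissues, although the median over the list was -1.55 (-0.38 at the bound). The 3 higher genes, far-1, far-2 and far-6, encode small helical proteins that bind fatty acids and retinol. With 31324 and 152424 reads, far-1 had the most reads of any gene in dauer muscle, at 15226 and 14263 CPM, against 61.8 and 58.0 CPM in multiple tissues (log2 fold change 7.94 ± 0.47, edgeR adjusted p = 8.03e-05). Its neighbour far-2, next to it on chromosome III (far-1 at 9080371 to 9081179, far-2 at 9081828 to 9082511, WBcel235), had 3310 and 2510 CPM in dauer muscle and 66.7 and 78.6 CPM in multiple tissues (log2 fold change 5.32 ± 0.51, edgeR adjusted p = 0.000367). No read of far-6 was found in multiple tissues, against 753 and 839 CPM in dauer muscle, so that it was at least 1129-fold higher, and at least 434-fold with the floor of the shallower library alone (edgeR adjusted p = 0.0017). All 3 passed in each fit that left out a library. The acyl-CoA synthetase gene acs-2, which feeds fatty acids into mitochondrial breakdown, was the only one of 17 tested fat metabolism genes called. It had 19.4 and 102 CPM in dauer muscle and 0 and 0.382 CPM in multiple tissues (edgeR adjusted p = 0.0343). The call was lost without dauer replicate 2 and without either multiple-tissue library.

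Transthyretin-related genes, a nematode family of small, mostly secreted proteins, had 9 higher and 0 lower among 27 tested, with a median log2 fold change of 2.82 (1.78 at the bound). They took 0.974 and 1.76% of the reads in dauer muscle and 0.0378 and 0.0368% in multiple tissues. The gene with the smallest p was ttr-17, at 3226 and 2482 CPM in dauer muscle and 10.4 and 3.05 CPM in multiple tissues (log2 fold change 8.75 ± 0.69, edgeR adjusted p = 0.00014). The level of ttr-6 was 2405 and 9549 CPM in dauer muscle and 0.612 and 2.67 CPM in multiple tissues (log2 fold change 11.68 ± 1.72, edgeR adjusted p = 0.0033). Its dauer libraries differed more from each other than those of ttr-17. For ttr-36 the levels were 679 and 761 CPM in dauer muscle and 1.84 and 2.29 CPM in multiple tissues (edgeR adjusted p = 0.00137). For ttr-47 they were 478 and 216 CPM in dauer muscle and 6.12 and 6.49 CPM in multiple tissues (edgeR adjusted p = 0.00307). Next to ttr-36 on chromosome X, ttr-35 had 284 and 38.1 CPM in dauer muscle and no read in multiple tissues (at least 228-fold higher, at least 87.7-fold with the shallower library alone; edgeR adjusted p = 0.0328, lost without either multiple-tissue library). In the mixed-stage muscle library with an SL2 tag, ttr-35 had 22191 reads, which these levels leave out. The remaining 4, named after their values were seen, were ttr-51, ttr-41, ttr-5 and ttr-45, at log2 fold changes of 5.42, 3.64, 6.07 and 4.27. The number higher was 8 without dauer replicate 2, and 6 and 5 without multiple-tissue replicates 1 and 2.

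Glycolysis genes split in both directions: of 22 tested, 5 were higher (22.7%) and 2 lower (9.09%), with a median log2 fold change of 0.02. Over all tested genes 5.14% were higher and 2.31% lower. The split ran through the glyceraldehyde-3-phosphate dehydrogenase genes, whose enzyme oxidises the triose sugar midway through glycolysis. On chromosome X, gpd-3 had 1628 and 877 CPM in dauer muscle and 39.8 and 32.8 CPM in multiple tissues (log2 fold change 5.11 ± 0.63, edgeR adjusted p = 0.00124). Its neighbour in the same operon, gpd-2, had 456 and 199 CPM in dauer muscle and 26.3 and 22.1 CPM in multiple tissues (log2 fold change 3.75 ± 0.66, edgeR adjusted p = 0.00749), a call lost without either multiple-tissue library. The copies on chromosome II had the opposite sign: gpd-1, named after its values were seen, had 24.8 and 1.40 CPM in dauer muscle and 2349 and 2278 CPM in multiple tissues (log2 fold change -7.50, edgeR adjusted p = 0.0216). The level of gpd-4 was 102 and 112 CPM in dauer muscle and 1666 and 1657 CPM in multiple tissues (edgeR adjusted p = 0.0729). The 2 genes of each chromosome are near-identical copies. How the authors assigned reads that fit both is not given in the sources used here, so the values within a pair are uncertain. The mixed-stage muscle library with an SL2 tag held 81172 reads of gpd-3 and 3829 of gpd-2, and SL2-joined RNA is not in these levels. The aldolase gene aldo-1 was higher, with 811 and 637 CPM in dauer muscle and 11.6 and 19.8 CPM in multiple tissues (log2 fold change 5.51 ± 0.68, edgeR adjusted p = 0.00128). The glucose-6-phosphate isomerase gene gpi-1 had 137 and 117 CPM in dauer muscle and 9.18 and 9.16 CPM in multiple tissues (edgeR adjusted p = 0.00864, lost without either multiple-tissue library). With dauer replicate 2 left out, 5 glycolysis genes were higher and 1 lower. Without either multiple-tissue library, 2 were higher and 1 lower.

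Of 26 citrate cycle genes, 0 were higher and 1 was lower (3.85%, against 2.31% of all tested genes; median log2 fold change -1.52). It was mdh-2, a malate dehydrogenase gene, with 39.4 and 25.2 CPM in dauer muscle and 420 and 392 CPM in multiple tissues (edgeR adjusted p = 0.0158). Of 31 respiratory chain and ATP synthase genes, 1 was higher (3.23%, against 5.14% of all) and 0 lower (median -1.10). It was asb-2, for the b subunit of ATP synthase, with 669 and 699 CPM in dauer muscle and 56.9 and 73.3 CPM in multiple tissues (log2 fold change 3.39 ± 0.82, edgeR adjusted p = 0.0325). Both calls were lost without dauer replicate 2 and without either multiple-tissue library. Among 17 antioxidant genes 2 were higher (11.8%) and 1 lower (5.88%), against 5.14 and 2.31% of all tested genes. The extracellular superoxide dismutase gene sod-4 had 318 and 90.5 CPM in dauer muscle and 2.45 and 1.14 CPM in multiple tissues (log2 fold change 6.82 ± 0.96, edgeR adjusted p = 0.00253). The gene msra-1, for methionine sulfoxide reductase, had 161 and 114 CPM in dauer muscle and 14.7 and 11.1 CPM in multiple tissues (edgeR adjusted p = 0.044, lost without any one of the 4 libraries). The peroxiredoxin gene prdx-2 was lower, with 444 and 255 CPM in dauer muscle and 3972 and 3753 CPM in multiple tissues (log2 fold change -3.47 ± 0.54, edgeR adjusted p = 0.0043).

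Among the pathway lists, cytosolic ribosomal protein genes had the most lower calls. Of 76 tested, 43 were lower and 0 higher, with a median log2 fold change of -1.56, and together they took 17.8 and 17.3% of the reads in dauer muscle and 35.3 and 36.5% in multiple tissues. The large-subunit gene rpl-16 (chromosome III, 3502841 to 3503604) had 2340 and 2180 CPM in dauer muscle and 12578 and 13349 CPM in multiple tissues (log2 fold change -2.52 ± 0.27, edgeR adjusted p = 0.000642). The stalk protein gene rla-2 had 609 and 618 CPM in dauer muscle and 4376 and 4775 CPM in multiple tissues (log2 fold change -2.90 ± 0.38, edgeR adjusted p = 0.00185). For rps-25 of the small subunit the values were 2441 and 1975 CPM in dauer muscle and 10957 and 12456 CPM in multiple tissues (log2 fold change -2.41 ± 0.33, edgeR adjusted p = 0.00206). For rpl-22 they were 1365 and 1116 CPM in dauer muscle and 7206 and 7521 CPM in multiple tissues (log2 fold change -2.57 ± 0.35, edgeR adjusted p = 0.00213). The replicates of these 4 genes lay close together on both sides, and all 4 passed in each fit that left out a library. An exception to the direction, though not called, was rps-16, among the 5 genes with the highest mean CPM in dauer muscle. It had 7266 and 4535 CPM there and 2966 and 3256 CPM in multiple tissues (log2 fold change 0.92 ± 0.58, edgeR adjusted p = 0.354). The mixed-stage muscle library with an SL2 tag held 137904 reads of rps-16, and SL2-joined RNA is not in these levels. The number of lower ribosomal genes was 22 without dauer replicate 2, 27 without dauer replicate 1, and 25 and 14 without multiple-tissue replicates 1 and 2.

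Other genes of protein synthesis and turnover gave few calls. Over all tested genes 5.14% were higher and 2.31% lower. The shares were 6.90 and 3.45% for translation factor genes, 3.125 and 3.125% for proteasome genes and 4.35 and 8.70% for chaperone genes. None of the 66 tested mitochondrial ribosomal protein genes passed (0 higher, 0 lower; median -0.60). The gene mrpl-34 had the smallest p among them, with 88.0 and 94.0 CPM in dauer muscle and 527 and 524 CPM in multiple tissues (edgeR adjusted p = 0.0554). Of 29 translation factor genes, 2 were higher and 1 lower. A copy of the elongation factor 1 alpha gene, eef-1A.2, had 1110 and 712 CPM in dauer muscle and 63.0 and 72.1 CPM in multiple tissues (log2 fold change 3.75 ± 0.48, edgeR adjusted p = 0.00153). It has a near-identical copy elsewhere in the genome, so its counts are uncertain. The other higher gene was iff-2 (374 and 347 CPM in dauer muscle, 31.8 and 38.9 CPM in multiple tissues) and the lower one inf-1 (362 and 305 CPM in dauer muscle, 1394 and 1330 CPM in multiple tissues), which encode homologues of initiation factors 5A and 4A, with edgeR adjusted p of 0.0135 and 0.0195. Among 32 proteasome genes, 1 was higher (rpn-10, a ubiquitin receptor, edgeR adjusted p = 0.0137) and 1 lower (rpn-5, edgeR adjusted p = 0.0403). Among 23 chaperone genes, 1 was higher (cct-5, a chaperonin subunit, edgeR adjusted p = 0.0496) and 2 lower (hsp-60 and sti-1, edgeR adjusted p = 0.0315 and 0.0205). Of these genes eef-1A.2 alone passed in every fit that left out a library.

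Autophagy and lysosome genes had 5 higher (11.1%) and 1 lower (2.22%) among 45 tested, against 5.14 and 2.31% of all tested genes. The median log2 fold change was 0.35. Together they took 1.48 and 1.50% of the reads in dauer muscle and 0.473 and 0.456% in multiple tissues. Much of that came from cpl-1, which encodes the lysosomal protease cathepsin L, with 4088 and 4446 CPM in dauer muscle and 66.7 and 61.8 CPM in multiple tissues (log2 fold change 6.05 ± 1.01, edgeR adjusted p = 0.00584). The adaptor gene sqst-1, a p62 homologue that brings cargo to autophagosomes, had 684 and 523 CPM in dauer muscle and 6.12 and 6.87 CPM in multiple tissues (log2 fold change 6.52 ± 1.12, edgeR adjusted p = 0.00885). A further higher member, named after its values were seen, was hlh-30, the transcription factor gene known for driving autophagy and lysosome genes, at a log2 fold change of 4.86. The lower gene was vha-8, a subunit of the proton pump that acidifies lysosomes, with 72.4 and 69.3 CPM in dauer muscle and 541 and 517 CPM in multiple tissues (edgeR adjusted p = 0.0222). The counts were 4 higher and 0 lower without dauer replicate 2. Without either multiple-tissue library 1 was higher, and sqst-1 no longer passed.

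Germline genes were the other side of the comparison. The germline and oocyte list had 42 tested genes, of which 9 were lower and 0 higher, with a median log2 fold change of -6.14 (-5.91 at the bound). They took 0.117 and 0.147% of the reads in dauer muscle and 2.01 and 1.99% in multiple tissues. The oocyte membrane protein gene egg-1 (chromosome III, 5728180 to 5730159), needed for fertilisation, had no read in dauer muscle and 1459 and 1409 CPM in multiple tissues. Allowing for counting error alone, it was at least 6092-fold lower against 3 counts over the dauer libraries (edgeR adjusted p = 0.0047). Against the floor of the shallower dauer library it was at least 983-fold lower. The RNA-binding protein genes puf-5 and daz-1, both active in oocyte development, had no read in dauer muscle either, against 1368 and 1402 CPM for puf-5 and 612 and 648 CPM for daz-1 in multiple tissues (edgeR adjusted p = 0.0049 and 0.00968). The germ-granule helicase gene cgh-1 was still read, with 37.9 and 118 CPM in dauer muscle and 1906 and 1957 CPM in multiple tissues (log2 fold change -4.63 ± 0.90, edgeR adjusted p = 0.0128; lost without multiple-tissue replicate 2). Counts of egg-1 are uncertain because egg-2, also lower, is a close copy. None of the 8 tested sperm genes was called (0 higher, 0 lower), and spe-44, a transcription factor gene of spermatogenesis, had no read in dauer muscle and 66.7 and 59.5 CPM in multiple tissues (edgeR adjusted p = 0.0873). The number of lower germline genes was 5 without dauer replicate 2, 15 without dauer replicate 1, and 6 and 5 without multiple-tissue replicates 1 and 2.

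Replication and cell cycle genes followed the germline genes in sign: 8 of 44 tested were lower and 0 higher, with a median log2 fold change of -5.03 (-4.81 at the bound). They took 0.296 and 0.339% of the reads in dauer muscle, against 1.55 and 1.52% in multiple tissues. Germline markers were low in the same dauer libraries (17.2 and 27.1 against 3567 and 3738 RPM), and their part in the cell cycle result was not tested. The B-type cyclin genes cyb-2.2 and cyb-2.1 had no read in dauer muscle, against 1566 and 1486 CPM and 884 and 903 CPM in multiple tissues (edgeR adjusted p = 0.00443 and 0.00724). Allowing for counting error alone, they were at least 6482-fold and 3794-fold lower, and at least 1046-fold and 613-fold lower against the floor of the shallower dauer library. They are close copies of each other, so reads may have been split between them. The thymidylate synthase gene tyms-1 also had no read in dauer muscle, against 578 and 543 CPM in multiple tissues (edgeR adjusted p = 0.00799). The gene pcn-1, for the sliding clamp of DNA polymerase, had 16.04 and 38.93 CPM in dauer muscle and 1586 and 1743 CPM in multiple tissues (log2 fold change -5.91 ± 1.17, edgeR adjusted p = 0.0142). These 4 passed in each fit that left out a library. The list's count of lower genes was 6 without dauer replicate 2, 19 without dauer replicate 1, and 6 without either multiple-tissue library.

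Neuronal genes gave mixed calls. Of 21 tested pan-neuronal genes, 2 were higher (9.52%, against 5.14% of all tested genes) and 0 lower (median log2 fold change 2.47). They included the syntaxin gene unc-64, with 242 and 132 CPM in dauer muscle and 3.06 and 3.82 CPM in multiple tissues (edgeR adjusted p = 0.0121). The other was the synaptic vesicle GTPase gene rab-3, with 18.0 and 51.5 CPM in dauer muscle and 0 and 1.91 CPM in multiple tissues (edgeR adjusted p = 0.0241). The first call was lost without either multiple-tissue library, the second without dauer replicate 2 or multiple-tissue replicate 1. The gene snb-1 had 1705 and 2601 CPM in dauer muscle and 469 and 518 CPM in multiple tissues and was not called (edgeR adjusted p = 0.104). The summed neuronal markers given above were higher in dauer muscle in the same libraries, and sbt-1, a neuroendocrine chaperone gene, had 0 reads in all 4. The part of neuronal RNA in these calls was not tested. Of 25 FMRFamide-like peptide genes, 1 was higher (4%) and 4 lower (16%), against 5.14 and 2.31% of all tested genes. The higher one, flp-10, had 128 and 112 CPM in dauer muscle and 1.22 and 2.29 CPM in multiple tissues (log2 fold change 6.01 ± 0.93, edgeR adjusted p = 0.00424). The lower genes were at low levels in all 4 libraries compared. The gene flp-24 had 1 and 0 reads in dauer muscle and 14 and 30 reads in multiple tissues (edgeR adjusted p = 0.00618). Both flp-9 and flp-26 had 0 reads in dauer muscle and at most 7 in a multiple-tissue library. They passed the read filter through libraries outside the comparison, such as young adult neurons (330 and 354 reads of flp-9, 63 and 113 of flp-26). The gene flp-6, named after its values were seen, had an edgeR adjusted p of 0.037. When only the 4 libraries were fitted, 5 of these peptide genes were tested, without flp-9 and flp-26. The calls of flp-10 and flp-24 held in every fit that left out a library, while 1 gene was lower without dauer replicate 2, 1 and 2 without multiple-tissue replicates 1 and 2, and 0 when only the 4 libraries were fitted or with limma. Of 32 other neuropeptide genes 2 (6.25%) were higher, nlp-20 and nlp-47, and 1 (3.125%) was lower, against 5.14 and 2.31% of all tested genes. Both higher calls were lost without dauer replicate 2 and without either multiple-tissue library. The lower one, nlp-11, had 0 reads in dauer muscle and 14 and 23 reads in multiple tissues (at least 36.8-fold lower, at least 5.95-fold against the shallower library; edgeR adjusted p = 0.00077). Of 11 insulin-like peptide genes, 1 was higher and 1 lower (9.09% each). The higher one was ins-17 (26.2 and 73.9 CPM in dauer muscle, 2.45 and 5.34 CPM in multiple tissues). The lower one was ins-34 (no read in dauer muscle, 23.3 and 32.1 CPM in multiple tissues). Their edgeR adjusted p were 0.0152 and 0.0286. Both calls were lost without dauer replicate 2.

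Lists for other tissues produced no call. In 27 cuticle collagen genes, 9 hypodermal genes, 9 intestinal genes, 7 basement membrane genes, 2 pharyngeal genes and 1 glial gene, 0 were higher and 0 lower. The members with the smallest p were dpy-5, phy-2, lys-7, fbl-1, pha-4 and hlh-17, with edgeR adjusted p of 0.0903, 0.164, 0.0848, 0.183, 0.304 and 0.306. The median log2 fold changes were -6.28 for the intestinal and 4.03 for the basement membrane genes, so the missing calls do not show equal levels. Of 28 splicing factor genes 2 were higher (7.14%, against 5.14% of all tested genes) and 0 lower. The 2 were prp-3 and prp-38 (edgeR adjusted p = 0.00905 and 0.0281). Both calls were lost without either multiple-tissue library, and that of prp-38 also without dauer replicate 2. Of 29 small GTPase genes 3 were higher (10.3%, against 5.14% of all tested genes) and 0 lower. They were led by rab-19 (496 and 359 CPM in dauer muscle, 4.895 and 12.21 CPM in multiple tissues, log2 fold change 5.61 ± 0.70, edgeR adjusted p = 0.00128). The others were rho-1, a regulator of the actin cytoskeleton (edgeR adjusted p = 0.0232), and rab-3, given above. The number was 1 without dauer replicate 2, and 1 and 2 without multiple-tissue replicates 1 and 2; rab-19 passed in each of these fits and rho-1 in none of them. Of 11 tubulin genes, tbb-6 was higher, a call lost without either multiple-tissue library, and tbb-2 lower. The broadly used beta tubulin gene tbb-2 had 1466 and 1413 CPM in dauer muscle and 7517 and 6740 CPM in multiple tissues (log2 fold change -2.31 ± 0.36, edgeR adjusted p = 0.00458). In 10 well-known downstream operon genes, 2 were higher and 0 lower, the neighbours gpd-2 and gpd-3 described above. RNA of these genes joined to SL2 was not counted.

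**Figure D4:**
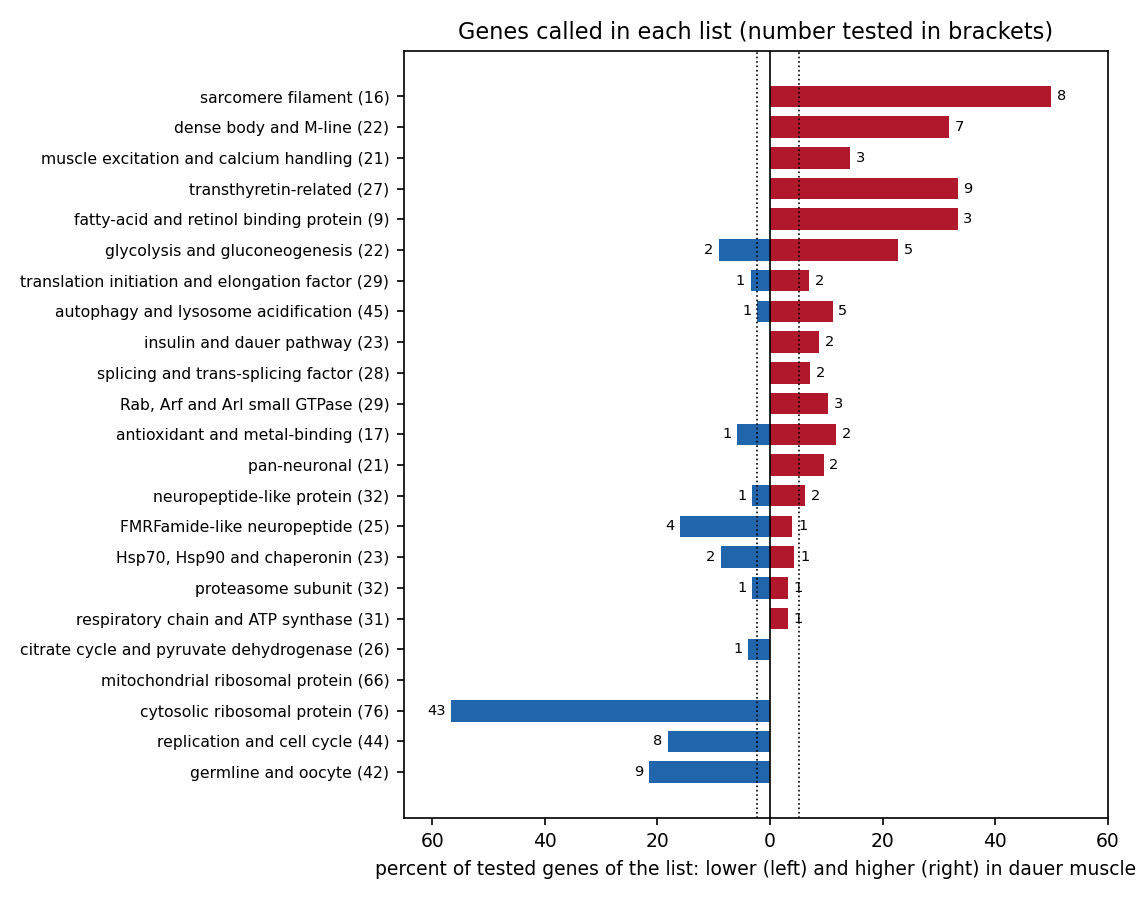
Percent of the tested genes of 23 gene lists that were lower (bars to the left) or higher (bars to the right) in dauer muscle than in multiple tissues; the dotted lines give the share over all tested genes (2.31% lower, 5.14% higher). Contractile, attachment and transthyretin-related genes extend only to the right, and ribosomal protein, germline and cell cycle genes only to the left.

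The 12 largest differences in each direction among well-measured genes with a symbol included 5 genes already described among the higher ones (tni-3, pxl-1, far-6, ttr-6 and ttr-35) and others of less known role. The gene tag-243 had 438 and 582 CPM in dauer muscle and 0.612 and 0 CPM in multiple tissues (log2 fold change 10.62 ± 1.38, edgeR adjusted p = 0.00246). The cullin gene cul-6, the cytochrome P450 gene cyp-33C7, the F-box gene fbxa-50, the serpentine receptor gene srt-63, the bestrophin gene best-23 and the Nudix hydrolase gene ndx-8 had no read in multiple tissues and between 69.2 and 237 CPM in each dauer library. These 6 calls were lost without either multiple-tissue library, and those of best-23 and ndx-8 also without dauer replicate 2. On the lower side stood era-1, trcs-1, gfat-2, fbxa-215, oma-2 and psf-3 beside the germline and cyclin genes above. Each had 0 reads in both dauer libraries and between 575 and 1105 CPM in each multiple-tissue library. The calls of era-1, trcs-1 and gfat-2, a gene of the hexosamine pathway, held in every fit that left out a library. Those of oma-2, for an oocyte maturation zinc-finger protein, and psf-3, for a subunit of the replicative GINS complex, were lost without either dauer library, and that of fbxa-215 without dauer replicate 2. The 5 genes with the highest mean CPM in dauer muscle, a ranking not per length, were far-1, his-72, Y51A2D.14, ttr-6 and rps-16. Of these, his-72, a histone H3.3 gene with near-identical copies, had 8660 and 10477 CPM in dauer muscle and 2353 and 2430 CPM in multiple tissues (log2 fold change 2.00 ± 0.37, edgeR adjusted p = 0.0103; lost without dauer replicate 2 and without either multiple-tissue library). Y51A2D.14 had 10459 and 7850 CPM in dauer muscle and 7.95 and 9.54 CPM in multiple tissues (log2 fold change 10.02 ± 1.24, edgeR adjusted p = 0.00125).

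Calls were also counted by position in the genome, to be set against 5.14% higher and 2.31% lower over all tested genes. Of 1219 tested genes on the X chromosome, 95 were higher (7.79%) and 9 lower (0.738%), with a median log2 fold change of 1.31 (0.94 at the bound). They took 7.591 and 9.002% of the reads in dauer muscle and 1.36 and 1.34% in multiple tissues. The X chromosome is known to be largely silent in the C. elegans germline, and germline markers were low in the dauer libraries as given above; their part in the X chromosome count was not tested. Of 1723 tested genes in operons, 35 were higher (2.03%) and 7 lower (0.406%). They took 20.0 and 17.2% of the reads in dauer muscle and 11.5 and 11.4% in multiple tissues, without any RNA joined to SL2. Genes annotated as non-coding RNAs had 8 higher (15.4%) and 0 lower among 52 tested, tts-1 among them.

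Gene sets of earlier origin that the authors' deposited table lists were read against the same counts. Of 562 tested genes of the set from purified muscle nuclei of young adults, 170 were higher (30.2%) and 1 lower. They took 15.0 and 16.3% of the reads in dauer muscle and 3.69 and 3.78% in multiple tissues. Of 468 genes bound by the muscle transcription factor HLH-1 in embryos, 67 were higher and 5 lower. Of 926 genes of the set from L1 muscle made by pulling down poly(A)-binding protein, 105 were higher and 65 lower. Of 4577 genes of the set from sorted embryonic muscle cells, 326 were higher and 101 lower, and of 839 genes of the reporter set, 74 were higher and 19 lower. The shares higher were 14.3% in the HLH-1 set, 11.3% in the poly(A)-binding protein set, 7.12% in the sorted set and 8.82% in the reporter set, against 5.14% over all tested genes. The shares lower were 1.07, 7.02, 2.21 and 2.26% in the same order, against 2.31% over all tested genes. Among the tissue marker genes that the authors' deposited table names, 12 of 35 tested muscle markers were higher and 0 lower, 0 of 31 germline markers were higher and 3 lower, 1 of 34 intestinal markers was higher and 0 lower, and of 23 hypodermal markers 0 were higher and 0 lower. In the authors' deposited table, made from the same samples, 588 of 9977 genes were marked as enriched in dauer muscle, with folds of at least 8.01 and adjusted p of at most 0.000999, a stricter rule than the adjusted p under 0.05 used here. All 588 were tested here and 377 were higher (64.1% of the authors' genes and 82.0% of the 460 found here).

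Pmyo-3::tag:SL1(G16C) was also carried by L1 larvae and L2 larvae, with 1 muscle library each, by young adults with 2 and by animals of the old stage, day 12, with 2. The day-12 animals were also treated with FUdR, which is given for no other muscle library, so age and FUdR cannot be told apart there. The named genes were read in all of these muscle libraries as well, and tested against the larvae and young adults. All of these comparisons share the 2 dauer libraries. Against young adult muscle, 5 genes were higher in dauer muscle (0.0558%) and 7 lower (0.0782%) out of all tested, and 4 of the 108 named genes were among them. These counts were 31 and 108 without dauer replicate 1, 1 and 0 without dauer replicate 2, 0 and 1 or 0 and 2 without a young adult library, 25 and 21 with the replicate block and 233 and 125 with DESeq2's Wald test. Against L1 and L2 muscle, 241 were higher (2.69%) and 54 lower (0.603%), and 25 of the named genes were among them. The counts were 293 and 231 without dauer replicate 1, 141 and 15 without dauer replicate 2, 89 and 47 without the L1 library, 29 and 19 without the L2 library and 933 and 235 with DESeq2's Wald test. The non-coding RNA tts-1 had 555 CPM in L1, 338 CPM in L2, 5801 and 5695 CPM in dauer, 108 and 105 CPM in young adult and 1124 and 2127 CPM in day-12 muscle. It was higher in dauer muscle than in young adult muscle (log2 fold change 5.75 ± 0.51, edgeR adjusted p = 0.00191) and than in L1 and L2 muscle (3.73 ± 0.46, edgeR adjusted p = 0.00505). Of these calls the first was lost without either young adult library (edgeR adjusted p = 0.119 and 0.0962) and the second held in all 4 fits that left out a library. Of the other genes given above with the dauer state, gyg-1, hsp-25 and hsp-12.1 were as high or higher at other stages, while hil-1 was not. The level of hil-1 was 400 and 279 CPM in dauer muscle, against 21.8 CPM in L1 and 0 CPM in L2. It was 23.1 and 47.6 CPM in young adult and 230 and 30.6 CPM in day-12 muscle. For daf-14 the ranges overlapped, with 125 and 199 CPM in dauer, 85.7 CPM in L1 and 132 CPM in L2. Its level was 65.6 and 21.1 CPM in young adult and 71.4 and 144 CPM in day-12 muscle. The level of gyg-1 was 991 CPM in L1, 456 CPM in L2, 303 and 391 CPM in dauer, 914 and 932 CPM in young adult and 220 and 309 CPM in day-12 muscle. For hsp-25 it was 681 CPM in L1, 343 CPM in L2, 149 and 45.5 CPM in dauer, 292 and 348 CPM in young adult and 223 and 230 CPM in day-12 muscle. For hsp-12.1 it was 273 CPM in L1, 452 CPM in L2, 182 and 41.5 CPM in dauer, 226 and 243 CPM in young adult and 89.2 and 1268 CPM in day-12 muscle.

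Lipid carriers and peptides had other orders across the stages. The gene far-2 stood at 1464 CPM in L1, 1414 CPM in L2, 3310 and 2510 CPM in dauer and 23388 and 23892 CPM in young adult and 3540 and 5320 CPM in day-12 muscle, so dauer muscle lay above multiple tissues and below young adult muscle. The log2 fold change of dauer minus young adult muscle was -3.02 ± 0.46 (edgeR adjusted p = 0.0435), and the call was lost without dauer replicate 2 or either young adult library. The neuropeptide-like gene nlp-20 had 12057 CPM in L1, 33049 CPM in L2, 170 and 197 CPM in dauer, 2765 and 2759 CPM in young adult muscle, 1433 and 2637 CPM in day-12 muscle and 55.7 and 57.6 CPM in multiple tissues. Dauer muscle was higher than multiple tissues (1.70 ± 0.30, edgeR adjusted p = 0.00834, lost without dauer replicate 2 and without either multiple-tissue library), lower than young adult muscle (-3.91 ± 0.33, edgeR adjusted p = 0.00191) and lower than L1 and L2 muscle (-6.76 ± 0.38, edgeR adjusted p = 4.45e-05). The young adult comparison gave an edgeR adjusted p of 0.0556 without dauer replicate 2, and the larval one held in all 4 fits that left out a library. Reads of nlp-11 were absent in dauer muscle, against 3.12 CPM in L1, 40.4 CPM in L2, 19.3 and 11.4 CPM in young adult and 62.4 and 63.1 CPM in day-12 muscle. Among the named genes called against L1 and L2 muscle, the ribosomal genes rpl-16, rla-2 and rps-25, mlc-2 and flp-24 were lower in dauer muscle. Higher there were tag-243, far-6, sod-4, hil-1, flp-10 and mex-3. The gene mlc-2, higher than in multiple tissues, had 16398 CPM in L1 and 11296 CPM in L2, against 1132 and 975 CPM in dauer muscle (log2 fold change -3.69). The level of tag-243 was 443 CPM in L1, 0 CPM in L2 and 438 and 582 CPM in dauer, so it differed from L2 and not clearly from L1. Of the 25, flp-24, nlp-20 and tts-1 passed in all 4 fits that left out a library.

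**Figure D5:**
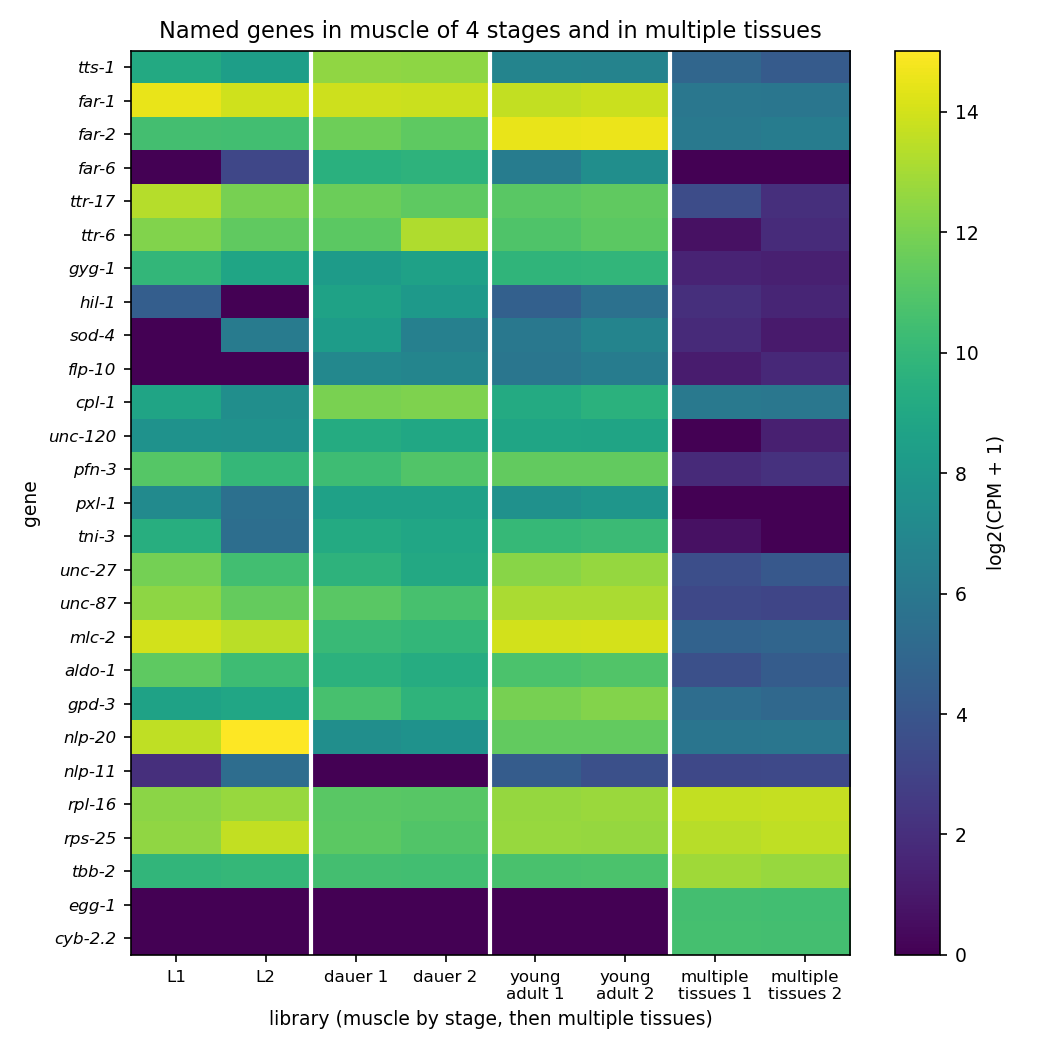
Heat map of log2(CPM + 1) for 27 genes in muscle of L1, L2, dauer (2 libraries) and young adult (2 libraries) animals and in multiple tissues (2 libraries). The row of tts-1 is brightest in the dauer libraries (5801 and 5695 CPM), while nlp-20 is brightest in L1 and L2 and low in dauer muscle (170 and 197 CPM).

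The reads also give the site at which the leader was joined, so the start of the mature RNA could be compared gene by gene. Of 467 genes with at least 2 acceptor sites that passed the read minimum (957 sites), 31 had different site use in dauer muscle and multiple tissues (6.64%), by edgeR's diffSpliceDGE with Benjamini-Hochberg adjustment, and 96 had an unadjusted p under 0.05. The leading site was compared only in genes with reads in all 4 libraries, which were all 31 called genes and 328 of the 467 tested. In 12 of the 31 the site with the most reads differed between the groups, against 103 of those 328. The sites lay within less than 50 bases of each other in 21 of the 31 (328 of the 467) and more than 1000 bases apart in 8 (87 of the 467). In 25 of the 31 at least 1 site had no dauer read at all, and in 1 of the 31 a site had no multiple-tissue read. A site without dauer reads could pass the read minimum only through both multiple-tissue libraries, the group in which it was higher. The share of such genes among the 467 was not counted. The 25 therefore cannot show whether sites without dauer reads were more frequent in called genes than in tested genes. Both sites of a close pair (under 20 bases apart, at least 200 reads in the library) were read in 30.2 and 8.87% of pairs in dauer muscle (668 and 1195 pairs) and in 65.8 and 76.4% in multiple tissues (787 and 965 pairs). The part of this difference between libraries in the 31 calls was not tested. The count of 31 became 0 with the replicate number as a block. Leaving out 1 library cannot show how firm the 31 calls are, since only the other group's pair then supplies the spread. Over gene counts the biological coefficient of variation within the group was 1.66 in dauer muscle and 0.0583 in multiple tissues.

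The gene with the smallest p was epg-6, an autophagy gene on chromosome III. At position 10600182 (WBcel235), the start of an annotated transcript, lay 0 and 0% of its trans-splice reads in dauer muscle and 85.8 and 84.0% in multiple tissues. Position 10599656, the start of a second annotated transcript, had 100 and 100% in dauer muscle and 14.21 and 16.02% in multiple tissues (129 and 752 reads at these sites in dauer muscle, 197 and 337 in multiple tissues). The level of epg-6 itself was not called (edgeR adjusted p = 0.722). In mex-3, a germline RNA-binding protein gene on chromosome I, the site at 127291, inside an annotated 5-prime UTR, took 87.1 and 96.9% of the reads in dauer muscle and 0.690 and 0.690% in multiple tissues. The rest lay at 128696, the start of another annotated transcript. Levels of mex-3 were 353 and 589 CPM in dauer muscle and 355 and 333 CPM in multiple tissues, overlapping ranges. In anat-1 on chromosome IV the site at 6770809, upstream of the annotated gene, took 84.9 and 73.5% in dauer muscle and 0.715 and 0.291% in multiple tissues, with the rest at 6778152, an annotated transcript start. For Y53H1A.2 on chromosome I the site upstream of the annotated gene at 11222325 took 100 and 100% in dauer muscle and 14.03 and 16.495% in multiple tissues. In C14B9.10 and cyn-1 the 2 sites lay close together and the minor one, with 8.61 and 7.84% and 8.82 and 8.15% of the reads in multiple tissues, had no read in dauer muscle. All 6 had an adjusted p of 0.0279 by edgeR's diffSpliceDGE.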

How the data were processed

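Gene read counts of trans-spliced RNA and read counts per acceptor site were used as the authors deposited them; per the labels' protocols, each library came from 300 to 600 µg of RNA captured with a biotinylated probe for the tag, turned into cDNA, enriched by 2 rounds of PCR, fragmented with Tn5 and sequenced in pairs by Illumina HiSeq. Trimmomatic, TopHat2 and DESeq are named in the submitters' processing notes, without versions. Neither the genome build nor the treatment of reads that fit several genes was found in the labels. Coordinates are those of WBcel235, on which 90.6% of the cis-splice sites in the deposited table fall on an annotated exon start. The deposited RPM values of the authors served the alternative on a log2 scale; of the fold changes and adjusted p-values in the authors' deposited table, only the limits of the genes marked as enriched are quoted. Per-sample values of 3 columns in each deposited file matched no library here and were not used. The group means in the authors' deposited comparison, a normalised signal of unstated scaling, were not printed. Gene counts and sums over trans sites differed for 12 of 204690 pairs of gene and library.

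Counts were tested with edgeR 4.0.16 (R 4.3.3): TMM, filterByExpr, quasi-likelihood F tests on 14 SL1-tag libraries in 8 groups, Benjamini-Hochberg adjustment, threshold 0.05. Site use was tested with diffSpliceDGE on the 4 libraries, for sites with at least 10 reads in 2 of them. DESeq2 1.42.0 and limma 3.58.1 served alternatives; the fits were tested on simulated data. The standard error was derived as the absolute log2 fold change over the root of the F statistic. Folds against a group without reads use 3 counts over the group; such floors cover counting error only, as amplified reads carry no molecular identifiers and are not independent. The series text calls the replicates biological, without saying from which cultures. Equal replicate numbers do not pair the samples: deviations of same-numbered libraries had a correlation of -0.0021 over genes, with 2 pairs. The SL2-tag library was left out. The genes named were myo-3; the 12 highest and 12 lowest log2 fold changes among called genes with a symbol, at least 10 reads in each library of the higher group, a mean log2 CPM of at least 5 there and groups that did not overlap; up to 4 called genes with the smallest p in each of 38 lists, or the 1 with the smallest p where none was called; the 6 genes with the smallest p for site use; and the 5 with the most CPM in dauer muscle. Members and lists were chosen with earlier results of these data known. Some results in the autophagy list are not reported here.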

Additional observations from a re-analysis of the deposited data

Results flagged for a closer look

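The other classes of reads outside the gene counts were each more frequent in dauer muscle than in multiple tissues. Sites joined within transcripts (cis) took 12.75 and 14.73% of the site reads in dauer muscle, against 3.95 and 3.91% in multiple tissues. Antisense sites took 0.542 and 0.573% in dauer muscle and 0.0509 and 0.0490% in multiple tissues, and intergenic sites 0.6146 and 0.7585% in dauer muscle and 0.0761 and 0.0776% in multiple tissues. Undetermined sites took 0.970 and 0.891% in dauer muscle and 0.251 and 0.256% in multiple tissues. The classes lie outside the main counts and exceeded the level of multiple tissues in both dauer libraries. Muscle libraries of the other stages with the SL1 tag also exceeded multiple tissues in each class, so this was not particular to dauer muscle. Cis sites took 29.6% in L1, 39.8% in L2, 13.9 and 14.6% in young adult and 14.7 and 20.4% in day-12 muscle. No test was made.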

How the results depend on the processing

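None of the 93 called named genes changed sign in 12 alternative settings: of 1113 values 961 kept the call and 152 lost it, and 43 of the genes were called in all 12. Most of these genes were picked for a small p or a large fold in the same data, so a kept sign was likely beforehand. The counts of called genes moved more. Genes called, higher and lower were 1408, 1018 and 390 with DESeq2's Wald test, 1255, 698 and 557 without a filter on low counts, 1033, 681 and 352 with a filter of 50 reads, 2150, 1073 and 1077 when only the 4 libraries were fitted, 2376, 975 and 1401 with limma on log2(RPM + 1), and 2013, 1144 and 869 with limma voom and library weights; with DESeq2's size factors in edgeR they were 672, 498 and 174. Leaving out 1 library gave 229 to 1230 called, 161 to 536 higher and 68 to 694 lower. Of the 667 genes called, 424 were called without dauer replicate 2, 610 without dauer replicate 1, and 255 and 228 without multiple-tissue replicates 1 and 2. Members of any list called higher (66) and lower (76) became 114 and 127 with the Wald test, 120 and 215 with the 4 libraries, 114 and 194 with voom; the lower count was 145 without a filter and 224 with limma on RPM, and leave-outs gave 31 to 66 and 31 to 117. Named genes called (93) ranged from 50 to 86 without 1 library; against young adult muscle (4) they were 22 with the Wald test and 1 to 4 without 1 library, and against L1 and L2 muscle (25) 46 and 6 to 22. Genes with changed site use (31) were 20 of 668 at a minimum of 5 reads, 23 of 165 at 50 reads, 1 with all 14 libraries and 0 to 279 without 1 library.

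With a replicate block 751 genes were called (462 higher, 289 lower), 105 list members were lower, and site use gave 0 (33 at an unadjusted p under 0.05). Settings shifted the median log2 fold change of all tested genes by -0.81 (voom), -0.53 (4 libraries) and -0.89 (without dauer replicate 1). Uncalled log2 fold changes that lost their sign were hlh-17, 0 without multiple-tissue replicate 2 (leave-outs -4.58 to 0), and mex-3, -0.086 without dauer replicate 2 (leave-outs -0.086 to 0.73); the cause of these changes was not tested. Depth limits what 0 reads can show. Before scaling between libraries, a count of 3 was 1.52 and 0.313 CPM in the dauer libraries and 1.37 and 0.825 CPM in multiple tissues.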
